A study of Mus musculus with 4 samples.

Results

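Cholesterol and fatty acid synthesis genes were examined in calvarial osteoblast cultures of 2 genotypes, on 4 arrays that each read total RNA of 1 culture. The genes were a list of 34 with textbook roles in the pathway, chosen with earlier results of these data known. They were 18 enzymes of the sterol branch, 10 of the fatty acid branch, and 6 that regulate the pathway or carry sterol. Of these, 30 of 34 (16 sterol, 8 fatty acid, 6 regulatory or transport) had an array row that names a single gene, among 22180 genes named in all. Acat2, Idi1, Scd2 and Acsl3 had none and were not analysed here. All 30 lay above the detection floor of 4.71, as did 17841 genes in total. A gene's level is the deposited log2 value of its brightest such row, and folds assume base 2, which the sources used here do not state.

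The Runx3f/f/Col1a1-cre group, called mutant-labelled below, had 2 arrays, and the wild-type group had 2. Runx3f/f is a floxed allele of the Runt-family transcription factor gene Runx3, and Col1a1-cre drives recombination in cells that use the type I collagen promoter, so other cells of the culture need not carry the deletion. Per the labels, both groups came from neonatal mouse calvaria and spent 21 days in osteogenic medium with ascorbate and glycerol phosphate. The titles call the replicates of both groups biological. Nothing in the labels says whether a replicate number marks a shared litter or day, or how many animals gave each culture. P-values therefore measure only the spread between these arrays, part of which may be technical.

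Cells build cholesterol from acetyl-CoA through mevalonate, the isoprenoid farnesyl diphosphate, squalene and lanosterol, and they build fatty acids from the same acetyl-CoA, then lengthen and desaturate them. The transcription factor SREBP2 mainly drives the sterol genes and SREBP1 mainly the fatty acid genes. Scap escorts both to the Golgi for cleavage when sterols are low, and the Insig proteins hold Scap back when sterols are high. In bone the route is known for farnesyl diphosphate synthase, the target of nitrogen-containing bisphosphonates.

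The promoter sequences show what the members share around their start sites, and the counts below do not use the size of any difference. RefSeq promoters (GRCm38.p6, 250 bases before to 50 after the start) were matched for 24 of the 30 members. Fdps, Fdft1, Sqle, Stard4, Scd1 and Fads1 were not matched. Both strands were searched for CCAAT, which binds NF-Y, for GGGCGG, which binds Sp1, for TCACNCCAC, a form of the sterol response element bound by SREBP, and for TGNGGT, a Runt motif. CCAAT was held by 13 of 13 sterol genes, 3 of 6 fatty acid genes and 4 of 5 regulators, against 41.1% of all 27025 genes in the table. For Acly, a fatty acid gene, the only match lay after the start. GGGCGG was held by 12 of 13 sterol genes, 2 of 6 fatty acid genes and 5 of 5 regulators, against 38.2% of all genes. TCACNCCAC was held by 1 member, Hmgcs1, against 1.44% of all genes. Other forms of the sterol response element were not searched for, so members without this match may still hold one. The Runt motif was held by 15 of 24 members, against 49.1% of all genes. In Hmgcs1 the Runt match, ACCCCA, is part of the letters of TCACCCCAC itself, so their overlap follows from the letters. An overlap of these motifs was held by 0.78% of all genes. For genes with more than 1 start in the table (5 of the 24 members) any of their promoters was counted.

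To show this difference, the 250 bases before the start are printed for Hmgcs1, the member with TCACNCCAC, for Msmo1, a sterol gene with 3 CCAAT matches, for Insig1, which was higher on the mutant-labelled arrays, and for Fads2, which was lower there and has no CCAAT in its window. Msmo1 was also lower on the mutant-labelled arrays in both replicates (-0.12 and -0.11), and no relation between motif and direction was tested. Capitals mark TCACNCCAC and CCAAT on either strand. The intervals are chr13:119690101-119690350, plus strand, for Hmgcs1, chr8:64733579-64733828, minus strand, for Msmo1, chr5:28071162-28071411, plus strand, for Insig1 and chr19:10101504-10101753, minus strand, for Fads2.
Hmgcs1: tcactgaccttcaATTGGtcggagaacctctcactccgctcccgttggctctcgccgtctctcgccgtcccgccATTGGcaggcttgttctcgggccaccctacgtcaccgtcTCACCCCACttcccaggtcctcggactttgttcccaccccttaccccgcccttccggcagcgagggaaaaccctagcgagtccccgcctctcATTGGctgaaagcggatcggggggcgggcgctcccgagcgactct
Msmo1: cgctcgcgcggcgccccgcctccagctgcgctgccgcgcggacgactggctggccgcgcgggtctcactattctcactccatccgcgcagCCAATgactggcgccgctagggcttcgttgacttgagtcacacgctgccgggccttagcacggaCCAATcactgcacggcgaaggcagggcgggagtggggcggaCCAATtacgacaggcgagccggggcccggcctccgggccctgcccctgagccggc
Insig1: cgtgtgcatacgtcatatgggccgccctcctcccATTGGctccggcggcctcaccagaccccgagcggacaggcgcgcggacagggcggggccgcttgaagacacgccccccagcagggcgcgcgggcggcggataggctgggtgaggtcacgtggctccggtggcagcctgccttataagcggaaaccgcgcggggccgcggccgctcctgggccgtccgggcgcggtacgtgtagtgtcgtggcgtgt
Fads2: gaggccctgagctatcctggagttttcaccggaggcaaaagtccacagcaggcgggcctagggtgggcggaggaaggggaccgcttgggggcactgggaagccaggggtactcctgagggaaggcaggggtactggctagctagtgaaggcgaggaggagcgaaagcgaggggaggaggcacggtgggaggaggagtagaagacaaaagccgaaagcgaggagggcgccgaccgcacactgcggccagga

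Runx3, the targeted gene, was not lower on the mutant-labelled arrays (7.94 and 8.06, against 7.45 and 7.87 in wild type), and which exons were floxed is not given in the labels. Both replicate 1 arrays had a median of 7.53 over tested genes, and both replicate 2 arrays one of 7.81. Mutant-labelled and wild-type arrays of the same number held exactly equal values in 35.8% of tested genes for replicate 1 and 50.2% for replicate 2, and in 25.7% for both. How this arose is not known, so an equal value does not establish that a gene was unchanged. The osteoblast marker Col1a1 was bright, at 13.45 and 13.57 on the mutant-labelled arrays, against 13.47 and 13.57 in wild type. Of 10 osteoblast markers, however, 4 were at least 1.2-fold lower on the mutant-labelled arrays in both replicates (3.76% of tested genes): Ibsp (-1.56 and -1.53), Dmp1 (-1.61 and -1.31), Phex (-0.89 and -0.77) and the dim Bglap (-0.57 and -0.50). In the other direction, Sp7 (0.29 and 0.082) and Postn (0.24 and 0.28) were higher in both, without overlap. In limma's fit 3 of the 10 passed unadjusted p under 0.05 (3.96% of tested genes) and 0 the adjusted threshold. The summed osteoblast level was 15.33 to 15.53, against 15.49 to 15.67 in wild type. A tissue tag reads myoblast, and the muscle regulators Myod1 and Myog read between 5.45 and 6.72 on the 4 arrays, while the titles read osteoblast. Of 7 myoblast markers 1, Des, was higher on the mutant-labelled arrays in both replicates (16.8% of tested genes), at 8.11 and 8.24 against 7.59 and 7.99. The summed myoblast level was 9.10 and 9.47 there, against 8.82 and 9.39 in wild type. Of 15 macrophage markers 14 were lower on the mutant-labelled arrays in both replicates (19.5% of tested genes). Their summed level was 11.38 to 11.53 there, against 13.0 to 13.10 in wild type (log2). Of 8 adipocyte markers above the floor 5 were lower in both (also beside 19.5%), with sums over the 9 with a row of 11.30 to 11.36 against 11.78 to 11.93, Pparg at -0.77 and -0.71, and the defining gene Adipoq near or below the floor (3.96 and 4.63, against 4.01 and 4.78). Summed chondrocyte markers were at 12.80 to 12.90 against 13.15 to 13.16, and summed endothelial markers at 9.07 to 9.09 against 7.87 to 8.36. Of the 5 endothelial markers, however, only 2, Cdh5 and Emcn, were higher in both replicates (16.8% of tested genes). Cdh5 was the brightest of them, at 8.63 and 8.41 against 6.93 and 7.13. Xist, which silences an X chromosome in female cells, read 10.51 and 10.57 on the mutant-labelled arrays, against 11.79 and 11.99 in wild type. Levels of the Y-linked gene Eif2s3y were 9.38 and 9.32 on the mutant-labelled arrays, against 6.72 and 7.42 on the wild-type arrays. The labels give no sex for the cultures, and the part of this difference in any comparison here was not tested. In such bulk RNA, fewer cells of a type and less RNA per cell cannot be told apart.

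Across the 30 members the differences between genotypes were small. Fdps, Scd1 and Fads2 were at least 1.2-fold lower in the mutant-labelled cultures of both replicates, against 3.76% of tested genes, and 0 members were that far higher in both, against 4.51%. Counted by sign alone, 15 of 30 were lower in both replicates (19.5% of tested genes), 4 were higher in both (16.8%) and 11 had exactly equal values in at least 1 replicate (60.3%). Among the 19 members that differed in both replicates, 15 were lower and 4 higher, where 49.1% of the 7076 such genes were lower in both and 42.4% higher. The sign counts depend on scaling, since small shifts of an array give exactly equal values a sign: after quantile normalization again 19 of 30 members were lower and 3 higher in both replicates, beside 63.3% and 16.8% of all tested genes, and with each array centred on its median 22 were lower and 4 higher, beside 64.3% and 16.7%. Under these scalings the share of members lower in both was close to that of all genes. The mutant-labelled and wild-type values did not overlap for 5 lower members (9.25% of tested genes), Fdps, Sqle, Srebf1, Scd1 and Fads2, and 3 higher members (7.66%), Hmgcs1, Insig1 and Stard4.

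None of these differences passed the adjusted threshold. In limma's fit across all tested genes (2 arrays per group), 0 of 30 members passed unadjusted p under 0.05 (3.96% of tested genes) and 0 passed after Benjamini-Hochberg adjustment (0.0%), each with an adjusted p of 1. With the replicate number as a term, 8 of 30 passed unadjusted p (13.0% of tested genes) and 0 the adjusted threshold. No fit with another variance model, normalization or replicate term brought a member past the adjusted threshold either, and the smallest adjusted p of a member was 0.0536 (Scd1, limma after quantile normalization again with the replicate number as a term).

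**Figure D1:**
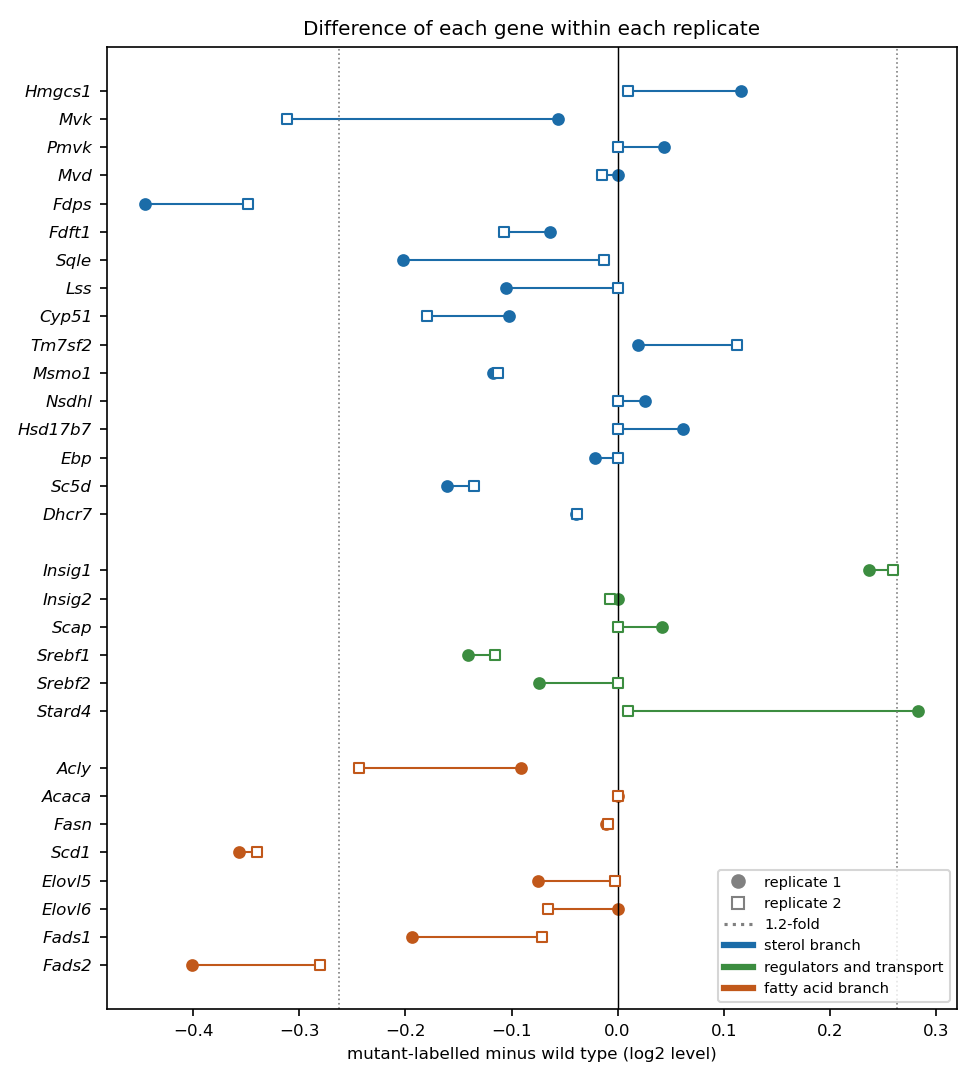
Log2 difference of each of the 30 genes, mutant-labelled minus wild type, within replicate 1 (filled circles) and replicate 2 (open squares), with dotted lines at 1.2-fold and rows grouped by branch. Fdps, Scd1 and Fads2 lie beyond the dotted line on the left in both replicates, and Insig1 lies just inside it on the right.

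In the sterol branch, the early enzymes of the mevalonate route lay close to their wild-type levels. Hmgcs1, which condenses acetyl-CoA units ahead of mevalonate, read 10.89 and 10.89 on the mutant-labelled arrays of replicates 1 and 2, against 10.78 and 10.88 in wild type, differences of 0.12 and 0.010. Mevalonate kinase, Mvk, read 9.34 and 8.93 against 9.40 and 9.25, so nearly all of its difference came from replicate 2 (-0.056 and -0.31). Pmvk, the next kinase, was 0.043 higher in replicate 1 and exactly equal in replicate 2, while Mvd, the decarboxylase that follows, was exactly equal in replicate 1 and differed by -0.015 in replicate 2. Only Mvk of these 4 enzymes passed 1.2-fold in a replicate.

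Fdps, which makes farnesyl diphosphate, the branch point toward squalene and protein prenylation, had the largest difference of the 30 members. It read 9.84 and 10.17 on the mutant-labelled arrays, against 10.28 and 10.52 on the wild-type arrays. The groups did not overlap, and the gene was 1.36-fold lower within replicate 1 and 1.27-fold lower within replicate 2. The mean log2 difference was -0.40 (SE 0.19, 95% interval -0.95 to 0.16, limma adjusted p = 1, n = 2 arrays per group). The interval spans 0 because replicate 2 read above replicate 1 by 0.33 in the mutant-labelled and 0.23 in the wild-type cultures.

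The squalene enzymes were lower by less. Fdft1, squalene synthase, read 10.95 and 11.01 against 11.01 and 11.12 (differences of -0.064 and -0.11). Sqle, the epoxidase that commits squalene to sterols, read 9.60 and 9.59 against 9.81 and 9.61, and its values did not overlap although replicate 2 differed by only -0.013. Lss, which closes the rings to give lanosterol, differed by -0.11 in replicate 1 and held an equal value in replicate 2.

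After lanosterol the 8 enzymes split. Sc5d, the sterol desaturase, was at -0.16 and -0.14, Cyp51, the lanosterol demethylase, at -0.10 and -0.18, and Msmo1, the methylsterol oxidase, at -0.12 and -0.11. Msmo1 read 9.40 and 9.09 on the mutant-labelled arrays, against 9.52 and 9.20 in wild type, so the groups overlapped although both replicates differed alike. Dhcr7, which performs the last reduction to cholesterol, was lower by 0.039 and 0.038, and the sterol reductase Tm7sf2 was higher by 0.019 and 0.11. The other 3 enzymes held exactly equal values in replicate 2: Nsdhl (0.026 in replicate 1), Hsd17b7 (0.062) and Ebp (-0.021). Nsdhl and Ebp are X-linked, and the part of the X- and Y-linked differences given above in their values was not tested.

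**Figure D2:**
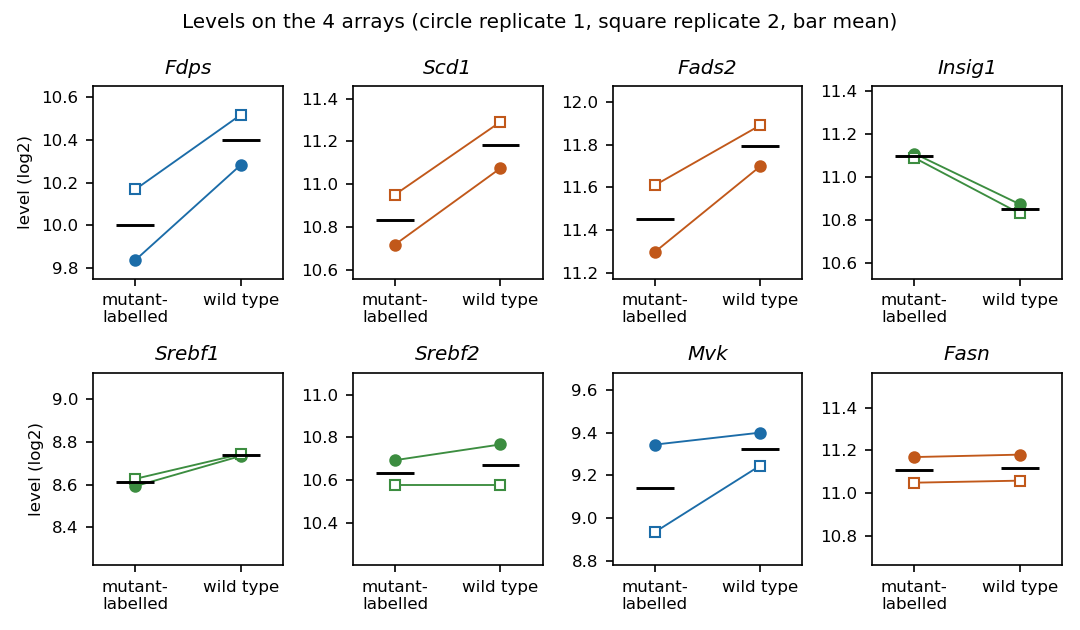
Levels (log2) of 8 genes on the mutant-labelled (left) and wild-type (right) arrays, where lines join arrays of the same replicate number, circles are replicate 1, squares are replicate 2 and bars are group means. All panels span the same range of log2 units; the lines of Fdps, Scd1 and Fads2 climb toward wild type in both replicates, that of Insig1 descends, and those of Fasn are flat.

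The regulators differed in direction. Insig1, which retains Scap in the endoplasmic reticulum and is itself a target of SREBP, was higher on the mutant-labelled arrays, at 11.11 and 11.09 against 10.87 and 10.83 in wild type. Its groups did not overlap, its replicates differed by 0.24 and 0.26 (1.18-fold in replicate 1), just short of the 1.2-fold line, and its mean difference was 0.25 (SE 0.12, 95% interval -0.09 to 0.59, limma adjusted p = 1). Arrays of the same genotype lay 0.020 apart in the mutant-labelled and 0.043 apart in the wild-type cultures. Insig2, the paralogue that is not driven by SREBP in the same way, read 9.15 and 9.64 against 9.15 and 9.65 and held an equal value in replicate 1.

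The SREBP genes themselves differed little. Srebf1, which encodes SREBP1, read 8.59 and 8.63 on the mutant-labelled arrays, against 8.73 and 8.74 in wild type, a non-overlapping difference of -0.14 and -0.12 (mean -0.13, SE 0.11, limma adjusted p = 1). Srebf2, which encodes SREBP2, read 10.69 and 10.58 against 10.77 and 10.58, with an exactly equal value in replicate 2. Scap read 9.54 and 9.25 against 9.50 and 9.25 on the brighter of its 2 rows, also equal in replicate 2, and the dimmer row was equal in both. Stard4, a soluble sterol carrier, was 0.28 higher in replicate 1 and 0.010 higher in replicate 2, so its higher mean rests on replicate 1.

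In the fatty acid branch, the genes that build the chain lay near their wild-type levels apart from Acly in replicate 2. Fasn, fatty acid synthase, read 11.17 and 11.05 on the mutant-labelled arrays against 11.18 and 11.06 in wild type, and Acaca, acetyl-CoA carboxylase, held exactly equal values in both replicates (8.94 and 8.83). Acly, which supplies acetyl-CoA to both branches, read 10.29 and 10.43 against 10.38 and 10.67, with most of its difference in replicate 2 (-0.091 and -0.24). The elongases Elovl5 and Elovl6 were within 0.075 of wild type in each replicate.

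The 3 desaturases among the members, Scd1, Fads2 and Fads1, were lower in both replicates. Scd1, which makes monounsaturated fatty acids, read 10.72 and 10.95 on the mutant-labelled arrays against 11.08 and 11.29 in wild type. That is 1.28-fold and 1.27-fold lower within the replicates, with no overlap of the groups and a mean difference of -0.35 (SE 0.17, 95% interval -0.83 to 0.13, limma adjusted p = 1). Fads2, the first desaturase of polyunsaturated fatty acid synthesis, read 11.30 and 11.61 against 11.70 and 11.89, again without overlap, 1.32-fold and 1.22-fold lower, with a mean of -0.34 (SE 0.18, limma adjusted p = 1).

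Fads1, which acts after Fads2 in the same route, read 11.98 and 11.86 against 12.17 and 11.93, differences of -0.19 and -0.071 with overlapping groups. Fads3, its relative, lies next to Fads2 and Fads1 in the genome and read 11.81 and 11.84 against 11.93 and 12.01, without overlap (-0.12 and -0.17). Scd4, which lies next to Scd1, was equal in replicate 1 and 0.0094 higher in replicate 2, at 4.97 and 5.79 on the mutant-labelled arrays against 4.97 and 5.78 in wild type. Scd3, of the same family, differed by -0.034 and -0.037 (4.29 and 5.19, against 4.32 and 5.23), so both were near the floor. Scd3 and Scd4 were named after their values were seen. On the same arrays 14 of 15 macrophage, 5 of 8 adipocyte and 4 of 10 osteoblast markers were lower in both replicates, as given above. In the other direction, 2 osteoblast markers were higher. Summed chondrocyte markers were lower, and summed endothelial and myoblast markers higher, within each replicate. The part of these markers' cells in the lower Scd1, Fads2 and Fdps values was not tested.

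**Figure D3:**
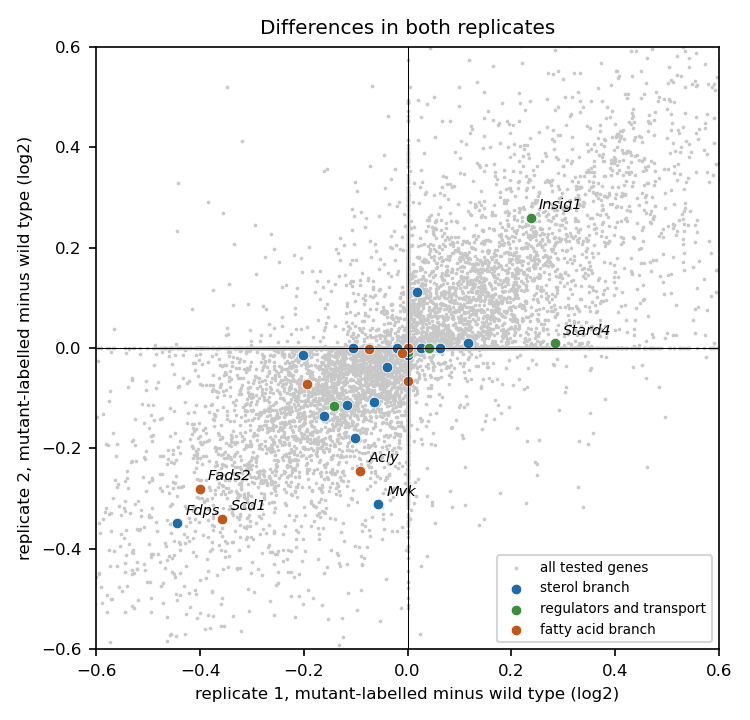
Log2 differences (mutant-labelled minus wild type) in replicate 1 (horizontal axis) and replicate 2 (vertical axis) for all tested genes (grey) and for the 30 members by branch. Axes end at 0.6 log2 units in either direction, and genes beyond that are not drawn. Fdps, Scd1 and Fads2 lie at the lower left, Insig1 at the upper right, and many genes lie exactly on an axis because their values were equal in a replicate.

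Set side by side, the branches differed from each other by less than their members did. The median log2 difference was -0.046 over 16 sterol genes, -0.086 over 8 fatty acid genes and 0.0085 over 6 regulators, where the median of all tested genes was 0. Within replicate 1 the sterol and fatty acid medians were -0.048 and -0.083, and within replicate 2 they were -0.014 and -0.069. The sterol median thus lay above the fatty acid median by 0.035 in replicate 1 and 0.055 in replicate 2, and members ranged from -0.40 to 0.066 in the sterol branch and from -0.35 to 0 in the fatty acid branch. Of the sterol genes 8 of 16 were lower in both replicates and 2 higher, and of the fatty acid genes 6 of 8 were lower and 0 higher, beside 19.5% of tested genes lower and 16.8% higher. After quantile normalization again 12 of 16 sterol and 5 of 8 fatty acid genes were lower in both, beside 63.3% of tested genes. With each array centred on its median, 11 of 16 sterol and 8 of 8 fatty acid genes were, beside 64.3%. The order of the branches changed with the scaling, so no difference between the branches is read from these counts. The sterol median was -0.14 when mutant-labelled replicate 2 was left out, -0.13 when wild-type replicate 1 was and -0.011 when wild-type replicate 2 was; the fatty acid median was -0.16 and -0.15 in the first 2 cases. The gap between the branches was 0.014 and 0.025 in those cases and 0.056 when mutant-labelled replicate 1 was left out. The sterol median was -0.029 in that last case. Leaving out an array puts the offset between replicates into the difference, and the median over all 17841 genes moved with it, to -0.16 in the first 2 cases and 0.15 in the others.

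Genes next to the pathway gave a like range. Of 9 other sterol pathway and SREBP2 target genes measured, 4 were lower in both replicates (19.5% of tested genes) and 1 higher (16.8%). Their median was -0.015, and 0 passed unadjusted p under 0.05 in limma (3.96% of tested genes). Tmem97, a sterol-regulated membrane protein, was at -0.32 and -0.30 (10.29 and 10.38, against 10.61 and 10.67) and Aacs, which makes acetoacetyl-CoA, at -0.24 and -0.18, both without overlap. The other 2 of smallest p were Rdh11 (-0.14 and -0.042) and Ggps1, which extends farnesyl to geranylgeranyl diphosphate, at 0.073 and an equal value.

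For SREBP processing and degradation, 2 of 8 measured genes had lower (19.5% of tested genes) and 1 had higher (16.8%) mutant-labelled values in both replicates, with a median of -0.027 and 0 past unadjusted p. Erlin1, an endoplasmic reticulum scaffold that takes part in sterol-regulated degradation, was at -0.31 and -0.080, its relative Erlin2 at -0.17 and -0.023, the ubiquitin ligase gene Rnf139 at 0.11 and 0.16, and Mbtps1, the protease that first cuts SREBP, at -0.10 and an equal value.

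Among 25 other lipogenic genes above the floor, 8 were lower in both replicates (19.5% of tested genes) and 1 higher (16.8%), the median was 0 and 0 passed unadjusted p. Acsl5, which activates fatty acids with coenzyme A, read 9.003 and 9.10 on the mutant-labelled arrays against 9.37 and 9.34 in wild type, without overlap. Dgat2, which makes triglyceride, was at -0.37 and -0.21 with overlapping groups, and Hsd17b12, a reductase of chain elongation, at -0.070 and -0.17.

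The next list held targets of the sterol receptor LXR and genes of cholesterol efflux and oxysterols. Of 12 measured, 5 were higher in both replicates (16.8% of tested genes) and 2 lower (19.5%), with a median of 0.024 and 0 past unadjusted p. With each array centred on its median 5 were higher and 5 lower, and no test of the list against other genes was made. Abca1, which exports cholesterol and is a target of the sterol receptor LXR, read 10.31 and 10.38 on the mutant-labelled arrays, against 10.06 and 10.15 in wild type, without overlap (mean 0.25, SE 0.12, limma adjusted p = 1). Cyp7b1, an oxysterol hydroxylase, was at 0.33 and 0.21, Ch25h, which makes an oxysterol, at 0.31 and 0.10, and Lipa, the lysosomal lipase, at -0.15 and -0.032.

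Of 12 fatty acid oxidation genes, 3 were higher in both replicates (16.8% of tested genes) and 2 lower (19.5%), with a median of -0.0023 and 0 past unadjusted p. Acadm, the medium-chain dehydrogenase, was at 0.23 and 0.28 without overlap (11.39 and 11.39, against 11.17 and 11.11). Its short-chain relative Acads was at -0.28 and -0.017, Hadha, of the trifunctional protein, at -0.12 and -0.10, and Acaa2, a thiolase, at 0.13 and an equal value.

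**Figure D4:**
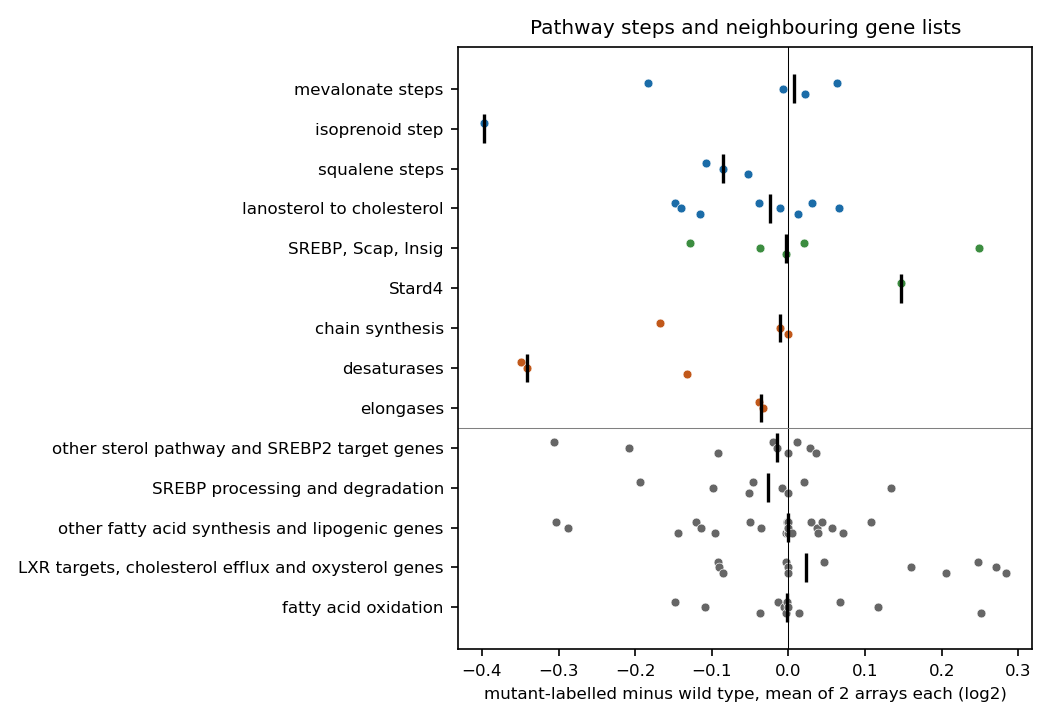
Mean log2 difference (mutant-labelled minus wild type) of each member by pathway step (coloured, above the line) and of each gene in 5 neighbouring lists (grey, below it), with a black bar at each median. Most points lie between -0.2 and 0.2; Fdps and the desaturases Scd1 and Fads2 lie farthest left among the members and Insig1 farthest right.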

How the data were processed

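Total RNA of 4 cultures was labelled as cDNA and hybridised to Mouse Gene 2.0 ST arrays, per the labels' protocols. The deposited log2 values were made with Partek and RMA, per the submitters' processing notes, which give no version, role or order; log base and centring are not stated. Rows were named through the platform annotation (23521 rows with 1 symbol, 1814 with several, 16010 with none), and the brightest single-symbol row stood for a gene. Genes with at least 2 arrays above the 90th percentile of 1405 olfactory and vomeronasal receptor rows were tested in R 4.3.3 with limma 3.58.1 (lmFit, eBayes, two-sided, group only), with Benjamini-Hochberg adjustment over 17841 genes and a threshold of 0.05. The fit was tested on simulated data. The replicate number is a possible processing batch, so differences are given within each replicate. With 2 arrays per group, their number limits the precision.

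The members and gene lists were chosen with earlier results of these data known. All members are named; of each neighbouring list, up to 4 genes of smallest p, Fads3 among them. Scd3, Scd4, Cdh5, Emcn, Des and the osteoblast markers that were lower or higher were named after values were seen. The grouping of members by step, the 1.1-fold and 1.5-fold thresholds, the set of genes that differed in both replicates and the printed promoters were chosen after values were seen. Alternatives covered the floor, normalization, rows per gene, variance trend, replicate block and each array left out.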

Additional observations from a re-analysis of the deposited data

How the results depend on the processing

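Counts of members with the same sign or at least 1.2-fold apart in both replicates kept within 1.5 times under every floor, normalization and row choice run, although over all genes the count with the same sign went to 14440 with arrays centred and 14283 after quantile normalization again, against 6471 as deposited. At 1.5-fold, 0 members were apart in both. With the replicate block 8 members passed unadjusted p under 0.05 in limma, among them Fasn at a difference of -0.010, and 8 did after quantile normalization again with the block; 3 passed with arrays centred, 3 after quantile normalization again and 3 with the intensity trend. Over all genes 335 and 49 passed the adjusted threshold in the quantile fit with the block and the trend fit, against 0 with the block alone, and 0 members in each. Same-numbered arrays deviated together (r = 0.92 across genes, raised by equal values), but the labels do not make the number a pairing. Quantile normalization again, with or without the block, moved the regulator median to -0.010, the gap between branches to 0.019 and Pmvk to -0.021. Over genes that differed in both replicates, a set chosen after seeing the data, medians were -0.11 (sterol), -0.15 (fatty acid) and 0.15 (regulators). With an array left out, the sterol median ran from -0.14 to -0.011, the fatty acid median from -0.16 to -0.061, the regulator median from 0.0092 to 0.093 and the gap from 0.014 to 0.056. The sign turned in 17 members then, since the offset between replicates enters: Mvd -0.19 to 0.17, Hsd17b7 -0.0053 to 0.067, Sc5d -0.32 to 0.021, Dhcr7 -0.20 to 0.12, Insig2 -0.25 to 0.25, Scap -0.12 to 0.16, Elovl5 -0.16 to 0.078, Elovl6 -0.19 to 0.12, Mvk -0.39 to 0.021, Pmvk -0.35 to 0.39, Tm7sf2 -0.16 to 0.30, Msmo1 -0.27 to 0.045, Nsdhl -0.20 to 0.23, Ebp -0.073 to 0.052, Srebf2 -0.13 to 0.059, Fasn -0.071 to 0.050, Lss -0.15 to 0.042. Fdps, Scd1, Fads2 and Insig1 kept their sign in every setting run, as did Hmgcs1, Fdft1, Sqle, Cyp51, Srebf1, Stard4, Acly and Fads1. Counts within both replicates could not be had with an array left out.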
